A study of Mus musculus with 10 samples.

Results

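The 10 genes described here are parts of the bone morphogenetic protein (BMP) pathway and the Id genes that it switches on, read in mouse embryonic stem cells (ESCs) of 3 genotypes. They were taken by symbol from a table of 51467 genes: the ligand Bmp4, the receptors Bmpr1a and Bmpr2, the transducers Smad1 and Smad5, the inhibitor Smad6 and the targets Id1, Id2, Id3 and Id4. Messenger RNA was counted by QuantSeq, a method that reads 1 tag near the poly(A) end of each transcript, so a count does not grow with transcript length. Wild-type (WT) cells gave 3 libraries. Cells lacking DGCR8, which works with the nuclease Drosha to release most miRNA hairpins, gave 3 libraries (DGCR8 KO). Cells lacking DDX6, an RNA helicase that acts with miRNA effector complexes and the decapping machinery, gave 4 libraries (DDX6 KO), 2 from each of 2 clones. All cells were unsorted ESC cultures in Knockout DMEM with 15% fetal bovine serum, LIF and the 2i inhibitors PD0325901 and CHIR99021, so no library is free of serum or of 2i. According to the study, WT was the V6.5 line and the DDX6 KO clones were made from it by sorting at clonal density and picking clones, while the DGCR8 KO line was taken from earlier work. The labels give CRISPR as the origin of the knockout cells and do not say whether libraries of a group came from separate cultures, so p-values measure the spread between these libraries only.

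BMP ligands bind pairs of type I and type II serine/threonine kinase receptors. The type I receptor phosphorylates SMAD1 and SMAD5, which enter the nucleus with SMAD4 and activate target genes, among them the Id genes and the feedback inhibitor Smad6. ID proteins lack a DNA-binding domain and hold E proteins such as TCF3 and TCF12 away from DNA. In mouse ESCs, BMP and Id proteins are known to help LIF in keeping cells undifferentiated, and serum is a known source of BMP activity.

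The 10 genes lie on 8 chromosomes (GRCm38, the build of mm10). The ligand Bmp4 is at chr14:46383520-46390669 on the minus strand, the receptor genes Bmpr1a at chr14:34410734-34502687 (minus) and Bmpr2 at chr1:59763400-59879014 (plus). The transducers Smad1 and Smad5 are at chr8:79338395-79399518 (minus) and chr13:56703010-56742377 (plus), and Smad6 is at chr9:63953076-64022059 (minus). The Id genes are short: Id1 at chr2:152736251-152737410 (plus), Id2 at chr12:25093799-25097140 (minus), Id3 at chr4:136143497-136145392 (plus) and Id4 at chr13:48261427-48264036 (plus).

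The count table gave 2131156 to 4745083 counts over genes per library, and the floor used here, 3 counts, was worth 0.669 to 1.44 CPM (counts relative to the library total). Dgcr8 fell by 2.34 on the log2 scale in its knockout and Ddx6 by 3.05 in its own, in the direction the labels give. The naive ESC markers (Pou5f1, Sox2, Nanog, Klf4, Esrrb, Zfp42, Tfcp2l1 and Klf2) were present in every library, with a summed level of 4243 to 4684 CPM. The sum hides opposite changes: of these 8, 2 rose and 4 fell in DGCR8 KO, beside 19.9% and 16.5% of all tested genes. In DDX6 KO 2 rose and 1 fell, beside 17.9% and 16.6%. Marker lists of other cell types were lower and also differed between genotypes, and their part in the results was not tested. The 5 trophoblast markers summed to 80.2 to 129 CPM in WT, 149 to 190 CPM in DGCR8 KO and 51.3 to 102 CPM in DDX6 KO libraries, mostly from Tfap2c, which ESCs also express, with Elf5 at 0 throughout. The 6 primitive endoderm markers summed to 7.58 to 11, 3.26 to 4.75 and 16.5 to 24.2 CPM in the same order, and the 4 neural markers to 54.3 to 85.9, 33.6 to 44.0 and 87.6 to 133 CPM. The 5 primed epiblast markers summed to 195 to 287, 149 to 179 and 81.4 to 108 CPM, with Fgf5 at 0 throughout, and the 4 mesoderm markers to 4.32 to 9.14, 7.13 to 11 and 10.4 to 24.6 CPM. The 6 feeder fibroblast markers stayed between 2.44 and 9.52 CPM. Some of the genes described here were highest in the libraries numbered 1 in their titles: Id1, Id3, Id4, Bmpr2 and Smad5 in all 4 groups (WT, DGCR8 KO and both clones). Smad6 was so in 3 groups, and Id2, Bmpr1a and Smad1 in 2. The share of all tested genes with this order was not counted. Calls of the named BMP genes that change without the libraries numbered 1 are also given.

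The miRNAs that DGCR8 KO cells lack include the family that dominates in ESCs. Mature members are shown, which may not be all, because their shared seed (bases 2 to 8, in capitals) is the stretch searched for in the 10 genes. Their levels were not measured here. In the study, naive ESCs were negative for a miR-302 reporter and positive for a miR-290 reporter. The sequences are RefSeq's on GRCm38.p6, at chr7:3218968-3218989, chr7:3220691-3220712, chr7:3220815-3220837, chr3:127545275-127545297 and chr3:127545665-127545687, all on the plus strand.
miR-291a-3p: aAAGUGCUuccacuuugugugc
miR-294-3p: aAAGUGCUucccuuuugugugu
miR-295-3p: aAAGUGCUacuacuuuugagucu
miR-302b-3p: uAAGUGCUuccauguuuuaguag
miR-302d-3p: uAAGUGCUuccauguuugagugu

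A match was AGCACTT (pairing with bases 2 to 8) or GCACTTA (bases 2 to 7 followed by A), on the transcript strand. When the pair overlaps, the 8 letters AGCACTTA result and were counted as 1 site. Among the main annotated 3′ UTRs of the 10 genes, only that of Smad5 held a match, with 2 sites in 4899 bases. Of all 10954 tested genes with an annotated 3′ UTR, 2190 held one, at a median length of 1061 bases. The UTRs of Id1, Id2, Id3 and Smad6, the genes that rose in DGCR8 KO cells, were 397, 785, 536 and 448 bases long and held none, nor did the 8529 bases of Bmpr2. Taking the longest annotated 3′ UTR instead left the count of genes with a match at 1. Both Smad5 sites are in its last exon on the plus strand of GRCm38, 3280 and 4008 bases after the stop codon, and are shown with the match in capitals.
Smad5, chr13:56740747-56740776: acttccctggcAGCACTTgggtccctgtca
Smad5, chr13:56741475-56741504: gtcagtgctcgAGCACTTAgcaggcatcga

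**Figure D1:**
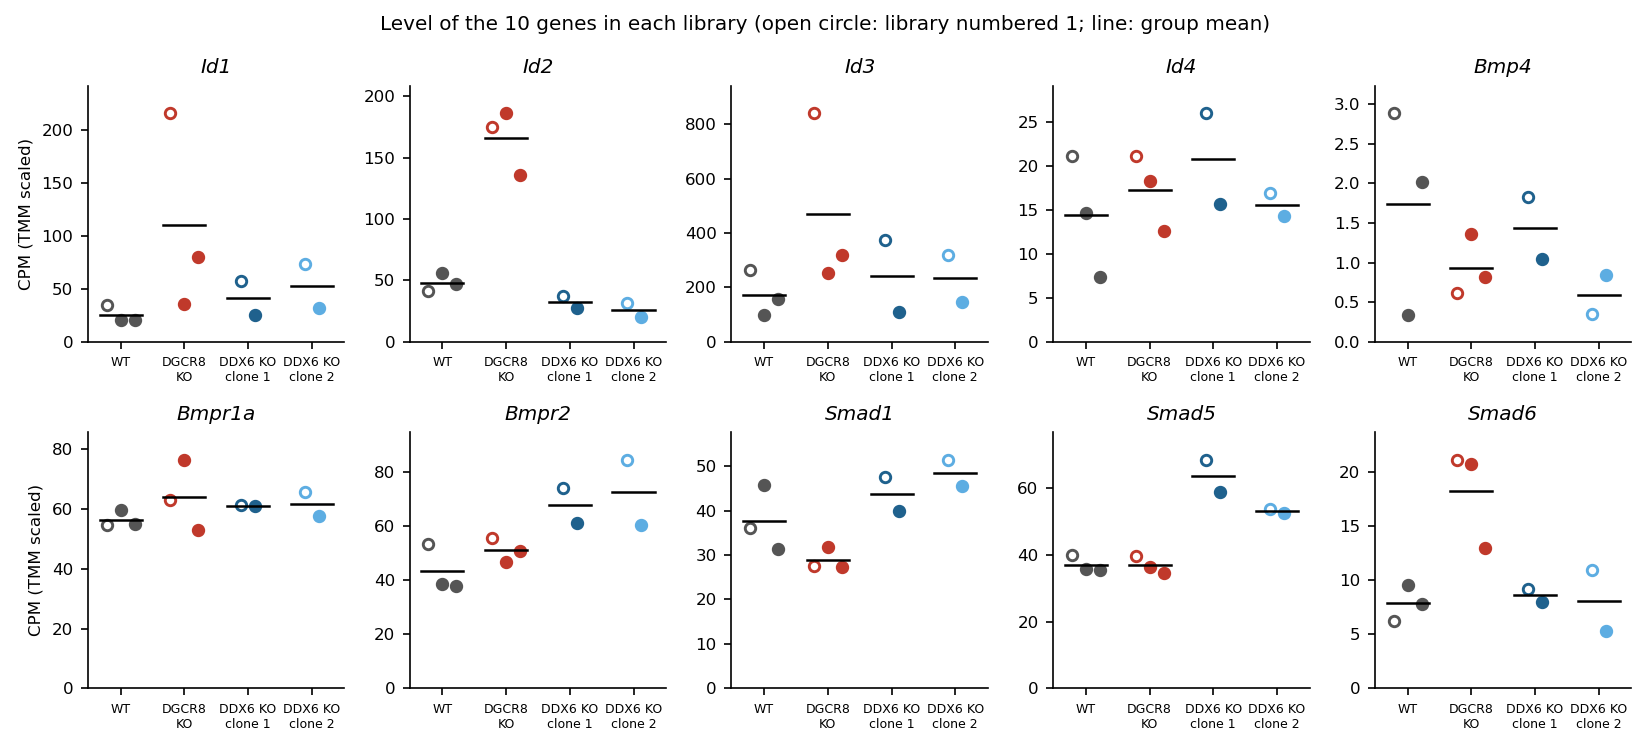
Level of each of the 10 genes in CPM (linear axis from 0) by library, with points for the 3 WT, 3 DGCR8 KO and 2 + 2 DDX6 KO libraries, an open circle for the library numbered 1 and a line for the group mean. Id2 sits between 136 and 186 CPM in the DGCR8 KO libraries and at 55.9 CPM or below in all others.

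The first comparison, DGCR8 KO against WT, asks which of these genes change in cells that lack miRNAs. The data show higher levels of 3 of the 4 Id genes and of Smad6, while the receptors and both transducers did not pass the test. Of the 9 genes with enough counts to be tested (at least 3 CPM in at least 3 libraries), 4 rose and 0 fell at an adjusted p under 0.05 in limma, against 19.9% higher and 16.5% lower among all 11683 tested genes. All 4 rose by more than 1 on the log2 scale, as did 8.93% of the tested genes. The median log2 difference of the 9 genes was 0.56, beside 0.0043 for all tested genes.

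Id2, whose protein binds E proteins, had the smallest error of the 4. Its level was 41.3, 55.9 and 47.0 CPM in the WT libraries numbered 1 to 3 and 175, 186 and 136 CPM in DGCR8 KO. The groups did not overlap, and the log2 difference was 1.77 (SE 0.174, adjusted p = 4.27e-07). Leaving out any 1 library kept it between 1.69 and 1.90. In bulk RNA, more cells expressing a gene and more RNA per cell cannot be told apart, here or in the results that follow.

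Id1, a classical direct target of SMAD1 and SMAD5, had 34.6, 20.8 and 20.3 CPM in WT and 216, 36.0 and 80.6 CPM in DGCR8 KO. All 3 DGCR8 KO libraries lay above all WT libraries, although the lowest of them was close to the highest WT value. The log2 difference was 1.90 (SE 0.527, adjusted p = 0.00847). DGCR8 KO library 1 carried much of it: without that library the difference was 1.17, and without all libraries numbered 1 it was 1.35 (adjusted p = 0.0154). A limma fit with the library number as a further term gave 1.97 (SE 0.227, adjusted p = 2.01e-07).

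Id3, which is often induced together with Id1, had 263, 99.8 and 158 CPM in WT. In DGCR8 KO it had 840, 253 and 321 CPM. The groups overlapped, since WT library 1 exceeded DGCR8 KO library 2. Each DGCR8 KO library lay above the WT library of the same number. The log2 difference of 1.39 (SE 0.429, adjusted p = 0.0163) was not past the threshold in DESeq2 (adjusted p = 0.0876). It also fell short without DGCR8 KO library 1, where it was 0.85, and without WT library 2, but it passed without all libraries numbered 1, at 1.15 (adjusted p = 0.00347). With the library number as a further term in the limma fit it was 1.36 (SE 0.115, adjusted p = 1.40e-09).

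Smad6, the inhibitor that BMP signalling induces against itself, had 6.24, 9.54 and 7.80 CPM in WT and 21.1, 20.7 and 13 CPM in DGCR8 KO, with no overlap. These levels rest on 13 to 69 counts per library. The log2 difference was 1.19 (SE 0.291, adjusted p = 0.00356), and without the libraries numbered 1 it was 0.96 and no longer passed (adjusted p = 0.0616).

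Id4, the fourth family member, had 7.36 to 21.1 CPM in WT and 12.6 to 21.1 CPM in DGCR8 KO libraries. Its log2 difference of 0.56 (95% interval -0.13 to 1.24, adjusted p = 0.194) did not pass, and the interval does not exclude a rise beyond 1. Without WT library 3 it was 0.01 and without WT library 1 it was 0.82.

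The promoter windows of the genes that rose are shown to give the sequence around their starts. No binding was measured here, and elements farther from the start lie outside the windows. Windows run from 250 bases before to 50 after an annotated start and come from RefSeq on GRCm38.p6. Capitals mark GGCGCC, a GC-rich element bound by SMAD1 and SMAD5 that reads the same on both strands. Of the 10 genes, 9 matched the table, and Id1 is named only. Single windows of Id2, Id4, Bmpr1a and Bmpr2 held the motif once, and those of Id3, Bmp4, Smad1 and Smad6 did not. Smad5 has 3 windows, of which an overlapping pair held 1 each and the third, at chr13:56703418-56703717, held 0. Of all 32851 windows, counted per start and not per gene, 11.9% held it. The windows shown are on chr12:25096043-25096342 (minus strand), chr4:136143572-136143871 (plus) and chr9:64022010-64022309 (minus).
Id2: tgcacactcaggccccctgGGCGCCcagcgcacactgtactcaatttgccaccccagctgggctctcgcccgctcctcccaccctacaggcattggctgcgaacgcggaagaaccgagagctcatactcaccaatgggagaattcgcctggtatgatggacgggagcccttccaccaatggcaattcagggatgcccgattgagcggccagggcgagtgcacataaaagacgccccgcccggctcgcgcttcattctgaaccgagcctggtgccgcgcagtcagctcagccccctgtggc
Id3: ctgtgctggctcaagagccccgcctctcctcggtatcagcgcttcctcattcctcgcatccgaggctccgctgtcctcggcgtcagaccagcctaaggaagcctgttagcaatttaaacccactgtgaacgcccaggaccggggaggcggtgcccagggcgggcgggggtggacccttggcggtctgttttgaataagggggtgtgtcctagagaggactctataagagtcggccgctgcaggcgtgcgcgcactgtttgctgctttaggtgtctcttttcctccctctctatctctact
Smad6: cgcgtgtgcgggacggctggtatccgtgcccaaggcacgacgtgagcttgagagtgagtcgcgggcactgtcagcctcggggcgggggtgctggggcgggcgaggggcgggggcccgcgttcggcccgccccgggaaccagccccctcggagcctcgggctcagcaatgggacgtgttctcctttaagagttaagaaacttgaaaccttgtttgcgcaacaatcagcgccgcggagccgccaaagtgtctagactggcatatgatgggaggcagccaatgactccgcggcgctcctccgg

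The ligand and receptors showed less. Bmp4 was near the floor in every library, with 16 counts summed over the WT libraries, 8 over DGCR8 KO and 12 over DDX6 KO, and no library above 9 counts or 2.88 CPM. It did not reach the filter, and a difference was not detectable at this depth. Bmpr1a, a type I BMP receptor, had 54.7 to 59.6 CPM in WT and 52.9 to 76.4 CPM in DGCR8 KO, with a log2 difference of 0.18 (95% interval -0.12 to 0.48, adjusted p = 0.351). Bmpr2, the type II receptor, had 37.7 to 53.3 CPM in WT and 46.8 to 55.7 CPM in DGCR8 KO, with a log2 difference of 0.30 (95% interval -0.063 to 0.66, adjusted p = 0.188). Both intervals stop short of 1.

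Smad5 had 39.9, 35.8 and 35.4 CPM in WT and 39.8, 36.3 and 34.6 CPM in DGCR8 KO, almost library for library. The log2 difference of Smad5 was 0.016 (95% interval -0.32 to 0.35, adjusted p = 0.950). Its 3′ UTR is the one with the seed matches printed above.

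Smad1 had 36.0, 45.7 and 31.4 CPM in WT and 27.6, 31.9 and 27.3 CPM in DGCR8 KO. Its log2 difference of -0.34 (SE 0.179, adjusted p = 0.142) did not pass. Smad1 lies on chromosome 8, whose 644 tested genes had a median log2 difference of -0.45 in DGCR8 KO cells, and 60.4% of them were lower than Smad1. With each chromosome's median set to 0, Smad1 came to 0.11 (adjusted p = 0.659). The chromosomes of the other 8 tested genes had medians between -0.0061 and 0.089.

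**Figure D2:**
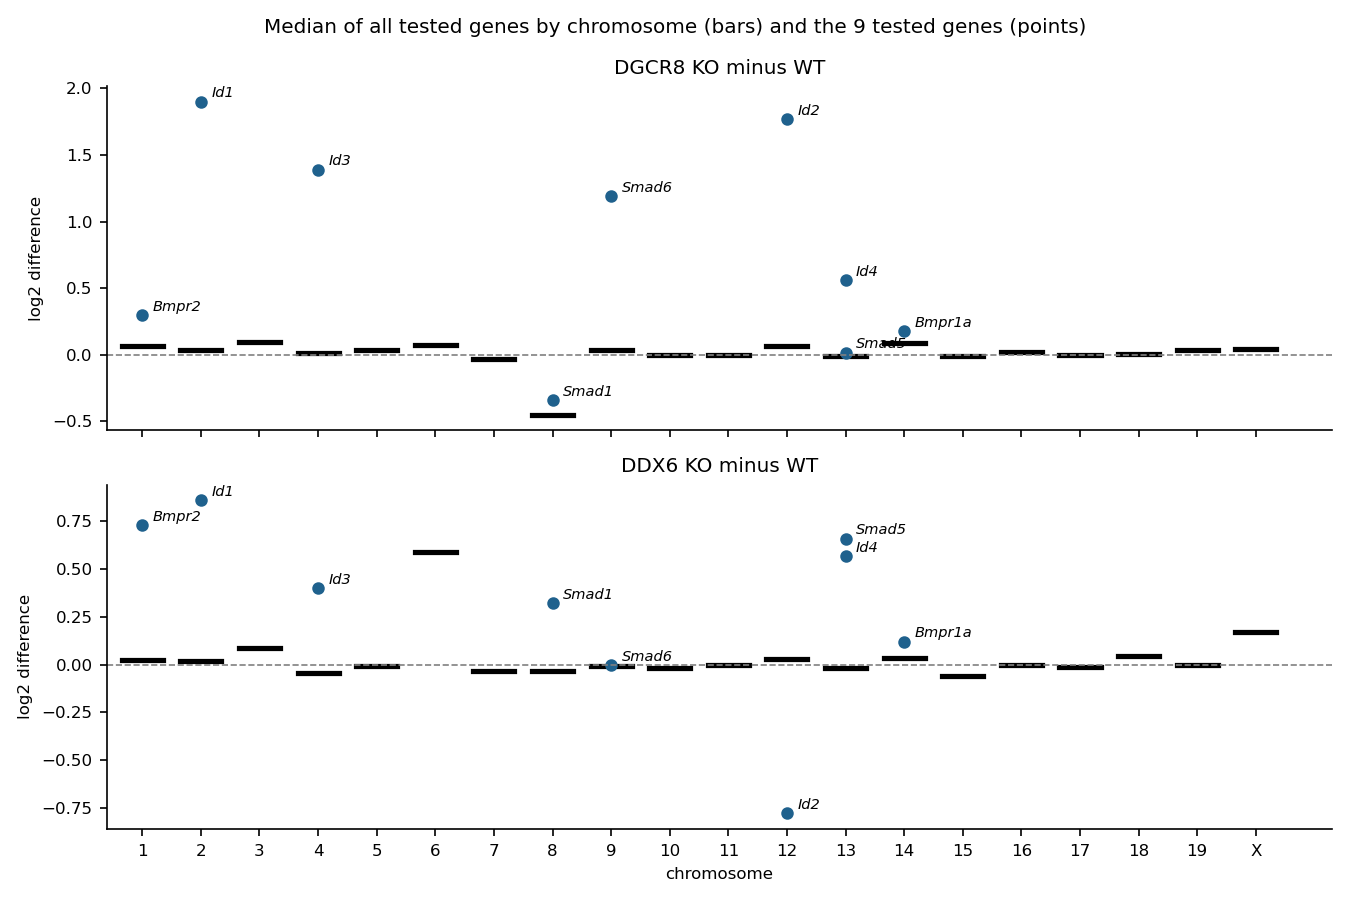
Log2 difference to WT (vertical axes, DGCR8 KO above and DDX6 KO below) by chromosome, with a bar for the median of all tested genes and a point for each of the 9 tested BMP and Id genes. In DGCR8 KO cells Smad1 lies close to the lowered bar of chromosome 8, at -0.45, while Id1, Id2, Id3 and Smad6 lie far above theirs.

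The second comparison, DDX6 KO against WT, asks the same of cells that lack the helicase. Here no rise of an Id gene passed the test. Id2 fell, and the positive differences of Id1, Id3 and Id4 did not pass, nor did the difference of Smad6. The type II receptor Bmpr2 and the transducer Smad5 rose. Of the 9 tested genes 2 rose and 1 fell, beside 17.9% higher and 16.6% lower among all tested genes, so the counts were near the background. The median log2 difference was 0.40 for the 9 genes and 0.024 for all tested genes. This comparison uses the same 3 WT libraries as the first.

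Id2 had 37.7 and 27.8 CPM in clone 1 and 31.7 and 19.9 CPM in clone 2, all below the lowest WT value of 41.3 CPM. The log2 difference was -0.78 (SE 0.199, adjusted p = 0.00569). In a fit with a group per clone, Id2 came to -0.57 in clone 1 (adjusted p = 0.0896) and -0.96 in clone 2 (adjusted p = 0.00878), so that clone 1 alone did not pass.

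Bmpr2 had 74.0 and 61.2 CPM in clone 1 and 84.4 and 60.4 CPM in clone 2, above the highest WT value of 53.3 CPM. The log2 difference was 0.73 (SE 0.157, adjusted p = 0.00153), with 0.69 in clone 1 and 0.77 in clone 2. Smad5 had 68.5 and 58.8 CPM in clone 1 and 53.8 and 52.6 CPM in clone 2, against at most 39.9 CPM in WT. Its log2 difference was 0.66 (SE 0.139, adjusted p = 0.00139), with 0.79 in clone 1 and 0.54 in clone 2. Both genes passed in each clone. Bmpr2 and Smad5 thus stood higher in every DDX6 KO library than in any WT library. The share of all tested genes separated in this way was not counted.

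Id1 and Id3 spread widely among the DDX6 KO libraries. Id1 had 57.1 and 25.0 CPM in clone 1 and 73.9 and 32.2 CPM in clone 2, with the higher value of each clone in the library numbered 1. Its log2 difference of 0.86 (95% interval -0.26 to 1.98, adjusted p = 0.224) did not pass, but a fit of only WT and DDX6 KO libraries gave 0.85 with an adjusted p of 0.0287. Id3 had 376 and 110 CPM in clone 1 and 321 and 147 CPM in clone 2, overlapping WT, with a log2 difference of 0.40 (95% interval -0.48 to 1.28, adjusted p = 0.484). Neither interval excludes a change of 1.

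The remaining genes did not pass. Id4 had 14.3 to 26.0 CPM and a log2 difference of 0.57 (95% interval -0.067 to 1.21, adjusted p = 0.157), which was 0.021 without WT library 3 and 0.83 without WT library 1. Smad6 had 5.32 to 10.9 CPM, around its WT values, with a log2 difference of -0.0016 (95% interval -0.65 to 0.65, adjusted p = 0.998). Bmpr1a had 57.7 to 65.8 CPM and a log2 difference of 0.12 (95% interval -0.16 to 0.40, adjusted p = 0.522). Smad1 had 40.0 to 51.4 CPM and a log2 difference of 0.32 (SE 0.154, adjusted p = 0.114). It passed when counts were scaled by library totals alone, at 0.45 (adjusted p = 0.0346), or without WT library 2, at 0.47. Chromosome 8 was not lowered here, with a median of -0.032.

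No difference between the clones was detectable in these genes. Between clone 2 and clone 1, log2 differences of the 9 tested genes ran from -0.39 (Id2) to 0.33 (Id1), and 0 passed in limma. At an unadjusted p under 0.05 the count was also 0, in limma and in edgeR, and over all tested genes 0.0428% passed. With 2 libraries per clone the intervals stay wide, from -0.98 to 0.20 for Id2 and from -1.03 to 1.70 for Id1. Against WT, 23.8% of all tested genes passed in clone 1 and 24.6% in clone 2. Ddx6 itself differed, with 142 CPM on average in clone 1 and 32.4 CPM in clone 2.

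**Figure D3:**
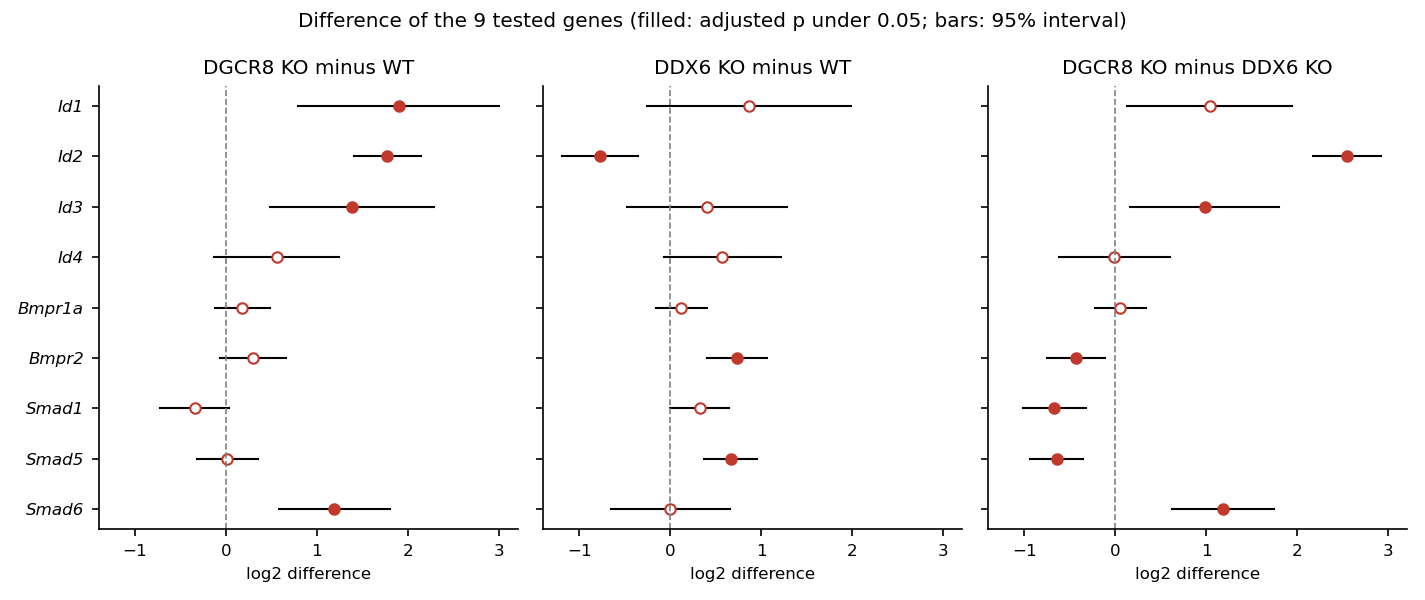
Log2 difference of the 9 tested genes (horizontal axis) in each comparison, with 95% intervals, a filled circle at an adjusted p under 0.05 and an open circle otherwise. Id2 is at 1.77 in DGCR8 KO and at -0.78 in DDX6 KO, and the widest intervals belong to Id1 and Id3.

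The third comparison sets the knockouts against each other and tests whether their changes differ. Id2, Id3 and Smad6 were higher in DGCR8 KO than in DDX6 KO cells, and Bmpr2, Smad1 and Smad5 were lower. Among all tested genes 23.0% were higher and 21.0% lower, against 3 and 3 of the 9. The median log2 difference was 0.06 for the 9 genes and 0.0019 for all tested genes.

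Of the 9, Id2 showed the widest gap, at 2.55 on the log2 scale (SE 0.178, adjusted p = 4.98e-09), with the lowest DGCR8 KO library at 136 CPM and the highest DDX6 KO library at 37.7 CPM. Smad6 was higher by 1.19 (SE 0.266, adjusted p = 0.00142). Id3 was higher by 0.99 with an adjusted p of 0.0478, a value that missed the threshold under 8 of the 13 other settings. It also missed without WT library 3, clone 1 library 2, clone 2 library 2 or DGCR8 KO library 1, where the difference was 0.44. Without all libraries numbered 1 Id3 passed, at 1.14 (adjusted p = 0.00356). With the library number as a further term in the limma fit Id3 passed, at 1.08 (adjusted p = 2.19e-08), though the numbers were not taken to pair these groups. Id1 was higher by 1.04 (95% interval 0.13 to 1.94) without passing (adjusted p = 0.0595), and its size rested on single libraries, at 0.31 without DGCR8 KO library 1 and 1.68 without DGCR8 KO library 2 (adjusted p = 4.26e-04). It passed without clone 2 library 1 as well, at 1.28, and in edgeR, at 1.26 (adjusted p = 0.0184).

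Smad5 was lower in DGCR8 KO cells, with a log2 difference of -0.64 (SE 0.141, adjusted p = 0.00125). Bmpr2 was lower as well, at -0.43 (SE 0.153, adjusted p = 0.0289), and lost its call without the libraries numbered 1 (-0.34, adjusted p = 0.184) and without DGCR8 KO library 2 or 3 or library 1 of either clone, at -0.42 to -0.35 in those 4 fits. Smad1 was lower by a log2 difference of -0.67 (SE 0.165, adjusted p = 0.00319). The median over chromosome 8 was -0.43 in this comparison, and with chromosome medians set to 0 Smad1 came to -0.23 (adjusted p = 0.290). Without the libraries numbered 1 it was -0.55 (adjusted p = 0.122).

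About as many other genes of the pathway were too low to be tested as were tested. Of 66 listed (ligands, receptors, transducers, antagonists, inhibitors, proteases, targets and the E proteins that ID proteins bind), 34 passed the filter, 21 had at most 3 counts in every library and 5 were at 0 in all. Only 2 of 15 ligands could be tested, Bmp7 and Gdf3. In DGCR8 KO cells 8 of the 34 rose (23.5%) and 4 fell (11.8%), with a median log2 difference of 0.15, beside 19.9% and 16.5% of all tested genes. In DDX6 KO cells 9 rose (26.5%) and 6 fell (17.6%), with a median of 0.18, beside 17.9% and 16.6%. In the direct comparison 10 were higher (29.4%) and 5 lower (14.7%) in DGCR8 KO cells, beside 23.0% and 21.0%. The shares were thus near those of all genes. The split in DDX6 KO cells changed with the scaling and the libraries used: 10 rose and 1 fell when scaled by library totals, 8 and 1 without WT library 1, 6 and 2 without WT library 2, 7 and 2 without clone 1 library 1 and 7 and 1 with clone 2 alone. Scaling by totals moved the median of all tested genes by 0.12 there, giving 2822 higher and 1356 lower in place of 2088 and 1944. In the direct comparison it moved the median by -0.13, giving 7 higher and 7 lower pathway genes and 2037 higher and 3210 lower over all tested genes.

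Outside the cell, 3 of the 5 tested antagonists rose in the first knockout and 2 in the second. Fstl1, a secreted follistatin-like glycoprotein, went from 218 ± 55.5 CPM (SD, n = 3) in WT to 893 ± 263 CPM in DGCR8 KO (log2 difference 2.05, adjusted p = 2.65e-06) and 533 ± 159 CPM (n = 4) in DDX6 KO (1.29, adjusted p = 3.21e-04). Fst, which encodes follistatin, an activin and BMP binding protein, rose by 1.04 in DGCR8 KO cells. Twsg1, a chordin cofactor, rose by 0.73 in DDX6 KO cells. The ligand Bmp7 fell from 7.74 ± 1.61 to 2.75 ± 0.305 CPM in DGCR8 KO cells (log2 difference -1.38, adjusted p = 0.0109), where its highest count was 9. Pcsk6, a convertase that cleaves precursors of the family, fell by 0.58 without DGCR8 (adjusted p = 0.0330) and by 1.22 without DDX6 (adjusted p = 1.76e-04).

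At the membrane, Rgma, a BMP co-receptor, rose from 14.5 ± 4.38 to 60.8 ± 18.4 CPM in DGCR8 KO cells (log2 difference 1.95, adjusted p = 1.23e-05). In DDX6 KO cells it had 20.4 ± 4.16 CPM and did not pass. Of the 7 other tested receptors and co-receptors, 2 rose and 2 fell in DDX6 KO cells, beside 17.9% and 16.6% of all tested genes. Those that rose were outside the genes named by rule. Those that fell were Eng (endoglin) and the activin receptor Acvr2b, by 0.65 and 0.37, close to the threshold (adjusted p = 0.0433 and 0.0476). Tob1, which binds SMAD proteins and the deadenylase complex, rose by 1.10 in DDX6 KO cells.

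Of the 6 other tested targets of the pathway, 1 rose and 2 fell in DGCR8 KO cells, beside 19.9% and 16.5% of all tested genes. Dusp9, a phosphatase of ERK that BMP is known to induce in ESCs, fell from 79.0 ± 2.29 CPM to 19.4 ± 0.493 CPM (log2 difference -2.01, adjusted p = 3.33e-07). In DDX6 KO cells Dusp9 had 68.5 ± 13.6 CPM and did not pass. Msx2, a homeobox gene, rose by 1.50 in DGCR8 KO cells (adjusted p = 0.0172) on at most 61 counts per library, and DESeq2 did not call it (adjusted p = 0.0539). Tbx3, a T-box factor, had 455 ± 61.7 CPM in WT, 341 ± 36.4 CPM in DGCR8 KO and 687 ± 14.7 CPM in DDX6 KO cells. It fell by 0.43 in the first knockout and rose by 0.59 in the second. Gata2, a zinc-finger factor, rose by 1.72 in DDX6 KO cells, from at most 5.13 CPM in WT. It lies on chromosome 6, whose 561 tested genes had a median log2 difference of 0.59 there.

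Among the E proteins, Tcf12 rose in both knockouts, from 64.9 ± 4.50 CPM in WT to 231 ± 9.39 CPM in DGCR8 KO (log2 difference 1.84, adjusted p = 1.98e-08) and 107 ± 19.0 CPM in DDX6 KO (0.71, adjusted p = 7.01e-04). The direct difference between the knockouts was 1.14 (adjusted p = 7.05e-07). Tcf4 fell by 0.36 in DDX6 KO cells (adjusted p = 0.0155). Of the 3 E protein genes tested, 1 rose and 2 fell there, beside 17.9% and 16.6% of all tested genes. The other that fell was Tcf3, which is outside the genes named by rule.

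Several of these calls against WT rest on single libraries. In DGCR8 KO cells the call of Fst was lost without WT library 3, at 0.74, and that of Msx2 without WT library 3, at 0.62, or DGCR8 KO library 1. In DDX6 KO cells the call of Twsg1 was lost without WT library 3, at 0.51, and that of Tcf4 without WT library 1, at -0.28. Pcsk6 in DGCR8 KO cells lost its call without WT library 1, at -0.37, or DGCR8 KO library 2 or 3. Eng in DDX6 KO cells lost its call without WT library 1 or 2, either library of clone 1 or clone 2 library 1, at -0.70 to -0.48. Acvr2b in DDX6 KO cells lost it without any 1 WT library, DGCR8 KO library 1, either library of clone 1 or clone 2 library 2, at -0.45 to -0.29. Without all libraries numbered 1, Bmp7, Msx2, Pcsk6 and Tbx3 no longer passed in DGCR8 KO cells, nor did Acvr2b, Eng, Twsg1 and Tcf4 in DDX6 KO cells, while Fstl1, Fst, Rgma, Dusp9 and Tcf12 did in DGCR8 KO cells. Gata2 gained a call there, with a log2 difference of -2.22 against WT (adjusted p = 0.0310), beside -1.15 (adjusted p = 0.183) over all libraries.

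**Figure D4:**
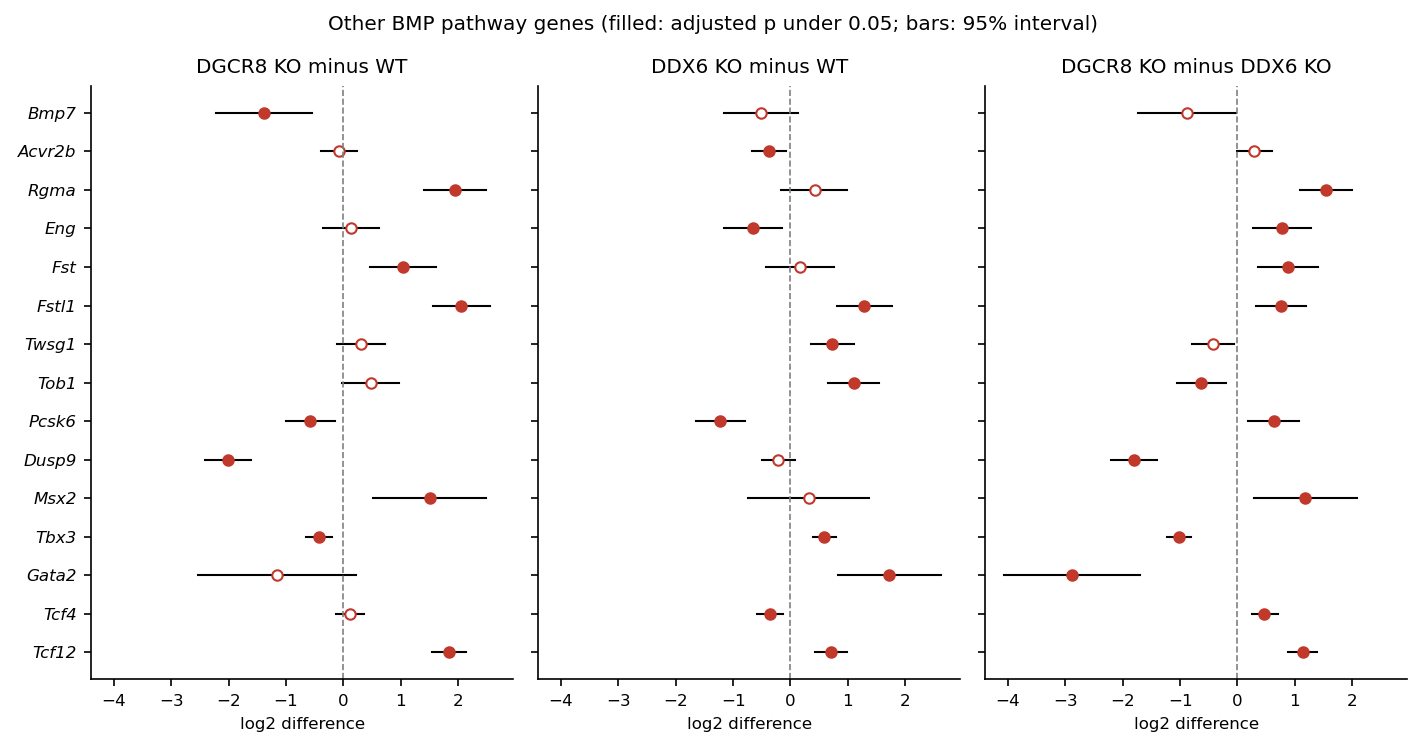
Log2 difference (horizontal axis) of the 15 other BMP pathway genes named by rule, in each comparison, with 95% intervals and a filled circle at an adjusted p under 0.05. Rgma and Dusp9 are at 1.95 and -2.01 in DGCR8 KO cells, and Tbx3 lies on opposite sides of 0 in the knockouts.

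Over the 10 libraries, the genes whose log2 CPM most resembled that of Id1 were Helz (Pearson r = 0.937), Bcr (0.929) and Id3 (0.928). These points share genotype and library number, so the values are a description: Id1, Id3, Helz and Bcr were each highest in the library numbered 1 of all 4 groups. For Bmp4 no such list was made because it did not reach the filter.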

How the data were processed

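QuantSeq 3′ FWD libraries (single-end reads of 50 bases) came from 10 ESC samples, grouped by title. Per the labels and the study, the authors trimmed reads with cutadapt 1.14, kept reads that STAR 2.5.3a placed uniquely on mm10 and counted them, sense strand only, with featureCounts 1.5.3. The deposited values are raw whole-number counts per gene, and no molecular identifiers are stated, so floors cover counting error only. Spike-in rows (92) were set apart. Symbols came from a GRCm38 annotation and matched 51274 of 51467 identifiers.

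The 11683 genes reaching 3 CPM in 3 or more libraries were scaled by TMM (edgeR 4.0.16) and fitted with limma 3.58.1 in R 4.3.3, with voom weights, all 10 libraries and genotype as the only term. The study used limma without giving the transformation, so voom was a choice made here. Like the study, the fit took the 4 DDX6 KO libraries as 4 replicates, including those of 1 clone. Adjusted p-values are Benjamini-Hochberg over all tested genes, two-sided, and "passed", "rose" and "fell" mean an adjusted p under 0.05. CPM values are TMM-scaled. The fitting code was tested on simulated data.

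The 10 genes and all lists were chosen with earlier results of these data known. Named were the 10 genes, both targeted genes and, in each comparison, up to 4 other pathway genes with the largest change in each direction among those that passed. The 3 genes most like Id1 were ranked by Pearson r of log2(CPM + 0.5), leaving out predicted genes. Whether title numbers pair samples was read from correlations of deviations from group means: same-numbered WT and DGCR8 KO libraries gave 0.145, 0.267 and 0.285, so the numbers were taken to pair those 2 groups. The fit reported has genotype as its only term and so leaves this pairing out. With the number as a block, no call of the 9 tested genes changed in that comparison, and the SE of each was smaller. Alternatives covered edgeR, DESeq2 1.42.0, limma-trend, scaling, filters, chromosome centring, each clone alone and each library left out. The fit without the libraries numbered 1 was added after seeing the data.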

Additional observations from a re-analysis of the deposited data

Results flagged for a closer look

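Of the 10 genes, 6 differed between the knockouts in the direct comparison by limma (adjusted p under 0.05, log2 difference of DGCR8 KO minus DDX6 KO). Among all tested genes 23.0% were higher and 21.0% lower. The difference was 2.55 for Id2, 0.99 for Id3 and 1.19 for Smad6, and -0.43 for Bmpr2, -0.67 for Smad1 and -0.64 for Smad5. Higher in 3 of 3 DGCR8 KO libraries than the DDX6 KO mean were Id2, Id3 and Smad6, and lower in 3 of 3 were Bmpr2, Smad1 and Smad5. The genes were picked by the test on these same libraries, so this order adds no support. For Id3 the groups overlapped: DGCR8 KO library 2, at 253 CPM, lay below DDX6 KO libraries at 376 and 321 CPM. The chromosome of Smad1 had a median of -0.43 in this comparison.

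Of the 34 other pathway genes tested, 15 differed as well, beside 5144 of all 11683 tested genes. Of these 15 pathway genes, 12 are among those named, which were chosen because they passed in a comparison. Higher in DGCR8 KO cells were Rgma (1.54), Eng (0.78), Fst (0.88), Fstl1 (0.76), Pcsk6 (0.64), Msx2 (1.18), Tcf4 (0.47) and Tcf12 (1.14). Lower were Tob1 (-0.63), Dusp9 (-1.80), Tbx3 (-1.02) and Gata2 (-2.88), the last on chromosome 6 with its median of -0.52. Some of these differences rest on single libraries. Without DGCR8 KO library 1, Eng (0.64), Fstl1 (0.60), Pcsk6 (0.45), Msx2 (0.80) and Tob1 (-0.47) no longer passed. The call of Fst was lost without DGCR8 KO library 2, at 0.61, that of Tob1 without DGCR8 KO library 3, at -0.49, and that of Eng without clone 1 library 1, at 0.60. Pcsk6 was also lost without clone 1 library 2 or clone 2 library 1, and Msx2 without DGCR8 KO library 2 or any 1 DDX6 KO library. Without all libraries numbered 1, Eng (0.48), Pcsk6 (0.43), Msx2 (0.92) and Tob1 (-0.35) did not pass (adjusted p = 0.263, 0.180, 0.251 and 0.412). With clone 2 alone Tob1 was -0.57 (adjusted p = 0.0989), and Pcsk6 and Msx2 did not pass with either clone alone or with scaling by totals.

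Among the 4 DDX6 KO libraries, 24 genes were checked for a library far from the rest, and 1 was found. Msx2 had its lowest value, 3.83 CPM, apart from 3 others at 5.60 to 5.86 CPM, with a gap of 0.871 of the range, past Dixon's 95% critical value. Chance flags about 1 in 20 such groups.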

How the results depend on the processing

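Of 621 values of the 9 tested genes under the alternatives, 559 kept direction and call, 26 lost and 8 gained a call, and 28 changed sign. The 15 other named genes were followed only in comparisons where they passed in the fit reported, so no call could be gained there. Of their 710 values 640 kept both and 70 lost the call. The cause was not tested unless stated. Depth limits Bmp4, Gata2, Bmp7, Msx2 and Smad6 among others, with few counts per library.

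Counts of genes that passed moved by more than 1.5 times under these settings. Without the libraries numbered 1 (fewer samples), all tested genes gave 2590 for DGCR8 KO against WT (4244 in the fit reported), 1701 for DDX6 KO against WT (4032) and 2697 for the direct comparison (5144), and other pathway genes gave 6 for DDX6 KO against WT (15). With clone 1 or clone 2 alone, also fewer samples, DDX6 KO against WT gave 2547 and 2569 over all genes and 9 and 8 pathway genes. With each library left out, DDX6 KO against WT ran from 2630 (without WT library 3) to 4287 over all genes and from 8 (without WT library 2) to 17 pathway genes. Pathway genes also dropped by over 1.5 times without WT library 1 or clone 1 library 1. The count of the 10 genes that passed stayed within 1.5 times under every setting, at 3 to 4, 2 to 4 and 4 to 7 for the 3 comparisons, and at 0 between the clones.

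The signs that changed belong to values near 0, except that of Smad1. Smad1 in DGCR8 KO came to 0.11 with chromosomes centred, which removes the shift of chromosome 8. Smad5 in DGCR8 KO against WT was -0.014 in DESeq2, -0.0047 in limma-trend, -0.0068 with DESeq2 size factors, -0.016 without a filter, -0.0044 with a replicate block, -0.0051 centred and -0.011 without the libraries numbered 1, and -0.046 to 0.059 with each library left out. Smad6 in DDX6 KO against WT was 0.052 in edgeR, 0.049 in DESeq2, 0.057 in limma-trend, 0.13 by total counts, 0.012 at a filter of 10 CPM and 0.12 with clone 1 alone, and -0.14 to 0.23 with each library left out. In the direct comparison Id4 was 0.20 with the block, 0.14 with clone 2 alone, 0.032 without the libraries numbered 1 and -0.18 to 0.18 with each library left out. Bmpr1a was -0.069 by total counts, -0.025 centred and -0.067 to 0.18 with each library left out.

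Same-numbered libraries of WT and DDX6 KO, or of DGCR8 KO and DDX6 KO, gave 8 correlations of deviations from group means. Those numbered 1 gave 0.141 to 0.171, and those numbered 2 gave -0.05 to 0.072. The libraries numbered 2 did not all deviate together, and the numbers were not taken to pair these groups. That was a choice that these correlations cannot settle: a clone has 2 libraries, so their deviations from its mean mirror each other. The labels do not say what the number stands for. With that number as a block, 4, 4 and 7 of the 9 genes passed in the 3 comparisons. Of the 9 genes, Id1 gained a call, at 0.74 for DDX6 KO against WT (adjusted p = 0.0205 in limma) and 1.23 for DGCR8 KO against DDX6 KO (adjusted p = 1.29e-05). Among the named pathway genes, Rgma gained one for DDX6 KO against WT, at 0.74 (adjusted p = 0.00880), and Acvr2b one for the direct comparison, at 0.35 (adjusted p = 0.0461). Other pathway genes numbered 13, 16 and 22, and all tested genes 4760, 3727 and 5346.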

Other observations

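The genes that were highest in the library numbered 1 of every group were not confined to the pathway. Fos, Egr1 and Junb, immediate-early genes chosen here after their values were seen, showed the same order. Fos had 262, 128 and 73.3 CPM in WT libraries 1 to 3 and 367, 153 and 143 CPM in DGCR8 KO. In DDX6 KO it had 572 and 229 CPM in clone 1 and 477 and 180 CPM in clone 2. Egr1 had 18.2, 8.52 and 10.5 CPM in WT, 252, 68.2 and 47.2 CPM in DGCR8 KO, 189 and 23.7 CPM in clone 1 and 147 and 20.4 CPM in clone 2. Junb had 83.5, 22.5 and 44.6 CPM in WT and 148, 40.7 and 57.0 CPM in DGCR8 KO. Id2, Bmpr1a and Smad1 did not share that order: each was highest in the library numbered 1 in 2 of 4 groups.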
